A study of Mus musculus with 10 samples.

Results

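Genes that make, break down or answer to cyclic AMP (cAMP) were followed in neutral and acidic medium in LLC cells, the Lewis lung carcinoma line of the C57BL/6 mouse. The set held 10 named genes: the transcription factor gene Crem, the salt-inducible kinase gene Sik1, the phosphodiesterase genes Pde4b, Pde4d, Pde3b, Pde7a and Pde8a, the adenylyl cyclase genes Adcy6 and Adcy7, and Rgs2, a regulator of G protein signalling. They were chosen by symbol with earlier results of these data known, so counts set against all genes are description and not independent support. All 32 of their probe sets with 1 gene symbol were read, out of 45101 probe sets and 18193 genes on the array. Of the 10 genes, 9 reached the level at which genes were tested (12161 genes in all), and Rgs2 did not.

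TDAG8-LLC cells stably expressed the receptor TDAG8 (Gpr65), and control LLC cells stably carried the control vector. Neither the promoter of the construct nor whether the cells were a single clone is stated in the labels. After 12 h without serum, in DMEM with albumin at pH 7.4, cells were taken at once (before treatment) or put in DMEM with albumin at pH 7.4 or pH 6.4 and taken 4 or 12 h later. Each of the 10 combinations had 1 Affymetrix Mouse430 2.0 array, hybridised with a pool of RNA from 4 cultures, and so no replicate. The study asked which genes TDAG8 controls in these cells.

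cAMP is made by adenylyl cyclases, which the stimulatory G protein switches on below receptors such as TDAG8, a proton-sensing receptor. It is broken down by phosphodiesterases, and the balance of these enzymes sets how long a signal lasts. cAMP activates protein kinase A, which phosphorylates the transcription factor CREB, and some CREB target genes shut the pathway off again. Crem yields the repressor ICER from an internal promoter, Sik1 inactivates the CREB coactivators of the CRTC family, and PDE4 enzymes degrade cAMP.

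Signals are the deposited linear values, which the authors had scaled to a 2% trimmed mean of 100 on every array. Array medians lay between 11.7 and 13.8. Differences are on the log2 scale after quantile normalisation and addition of a pseudocount of 2.4, and where a gene had several probe sets, the one with the highest mean stands for it. The probe set of Gpr65 read 0.3 to 5.3 over the 10 arrays, under the filter level of about 6.6, and so does not check the labels. The carcinoma label was matched by the keratin Krt8 (1242 to 2648) but not by E-cadherin (Cdh1 0.2 to 5.3). The other epithelial markers were Krt18 (21.6 to 194), Epcam (22.1 to 45.1), Ocln (7.0 to 31.1) and Cldn4 (1.3 to 6.6). Of 5 fibroblast markers, Lum read 708 to 3964, Pdgfra 265 to 1617, Dcn 330 to 1309, Pdgfrb 95.3 to 654 and Col1a1 0.4 to 6.4. The 5 leukocyte markers summed to 43.5 to 59.3 in TDAG8-LLC cells and 39.9 to 60.2 in control LLC cells, with Ptprc at 1.2 to 6.3, and the 4 endothelial markers to 24.4 to 33.0 and 15.7 to 24.8.

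**Figure D1:**
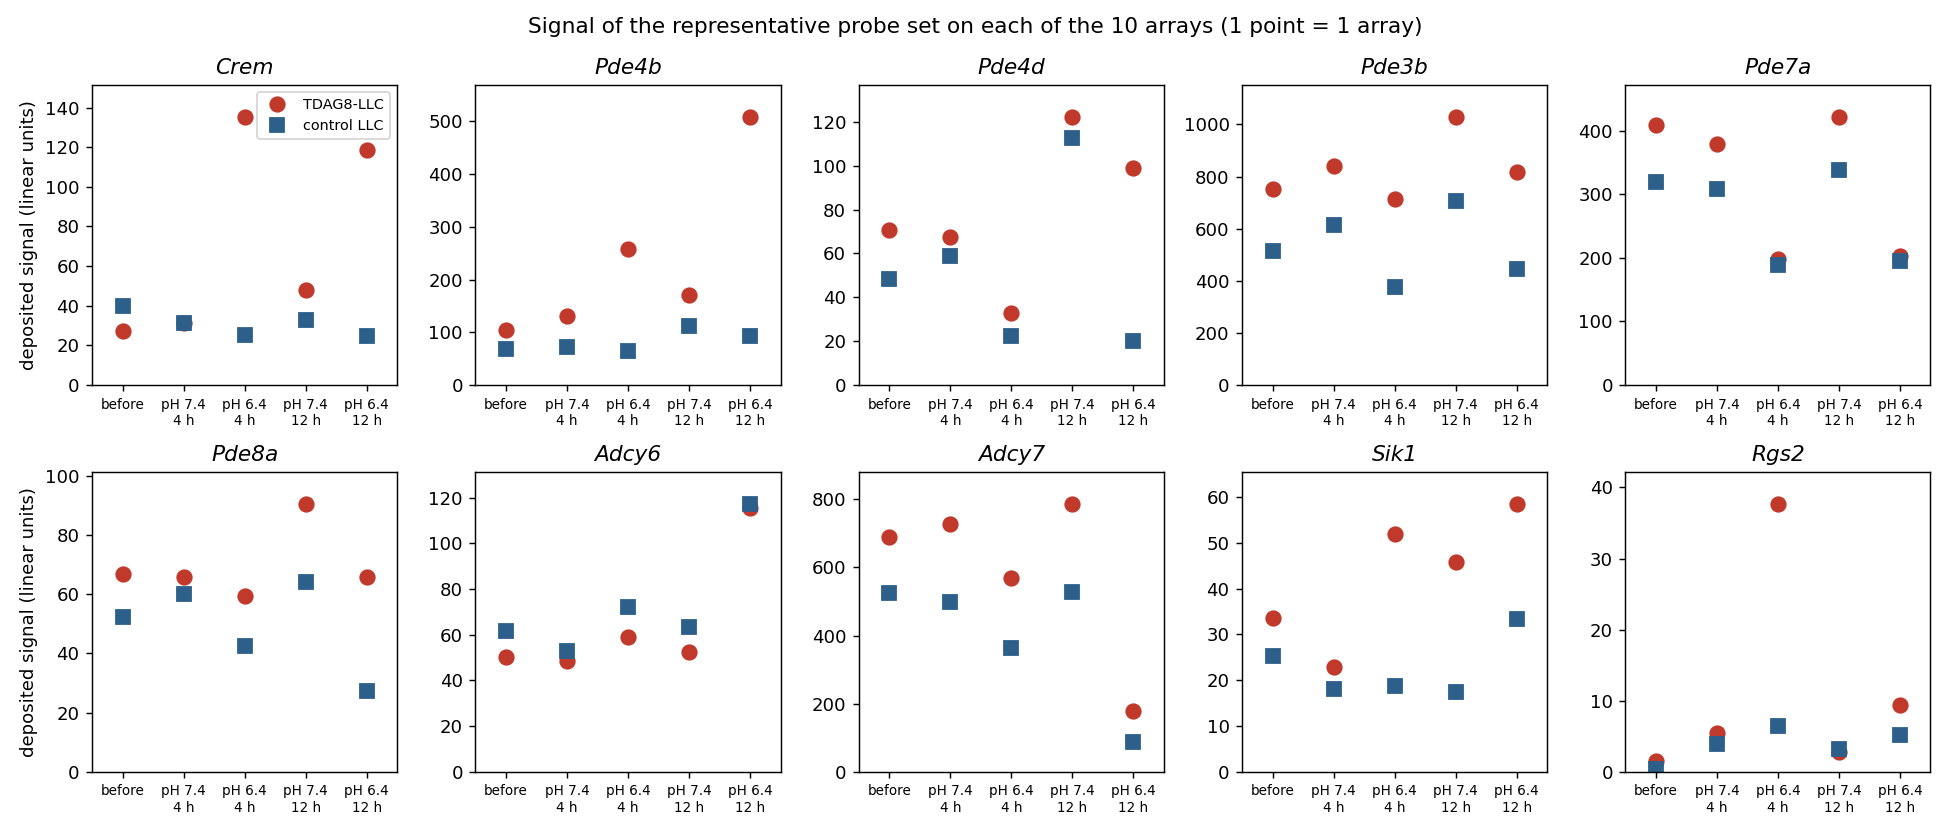
Deposited signal (linear units, axis from 0) of the representative probe set of each gene on the 10 arrays, with circles for TDAG8-LLC cells and squares for control LLC cells, 1 array per point and no error bars because no condition had a replicate. Crem read 135 and 119 in TDAG8-LLC cells at pH 6.4 and 24.9 to 47.7 on the other 8 arrays.

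The comparison closest to the aim asked whether the pH response of a gene differed between the 2 kinds of cell. Crem and Pde4b had higher signals at pH 6.4 in TDAG8-LLC cells at both times and not in control LLC cells, while Pde3b, Pde7a and Adcy7 were lower at pH 6.4, and Adcy6 higher, in both kinds of cell. None of these differences between the cells passed the test, which had only 2 residual degrees of freedom.

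Crem encodes activators and repressors that bind the cAMP response element (CRE). In TDAG8-LLC cells it read 27.3 before treatment, 31.3 after 4 h and 47.7 after 12 h at pH 7.4, and 135 and 119 at pH 6.4. Control LLC cells read 40.0 before treatment, 31.4 and 32.6 at pH 7.4, and 25.0 and 24.9 at pH 6.4. Both acid arrays of TDAG8-LLC cells thus lay above all others. Those of control LLC cells lay below all others in these deposited signals but not after quantile normalisation. There control LLC cells at pH 6.4 after 12 h were at 4.89 (log2) and TDAG8-LLC cells before treatment at 4.85. In bulk RNA, fewer expressing cells and less RNA per cell cannot be told apart. The log2 difference between pH 6.4 and pH 7.4 was 2.21 at 4 h and 1.32 at 12 h in TDAG8-LLC cells, and -0.32 and -0.15 in control LLC cells. The 2 responses differed by 2.00 (4.01-fold, SE 0.39, 2 times in each kind of cell, limma adjusted p = 0.9999, unadjusted p = 0.00409). Another Crem probe set above the filter, 1418322_at, read 53.2 and 38.6 in TDAG8-LLC cells at pH 6.4 and 12.8 to 22.3 on the other 8 arrays. Its lowest signal, 12.8, was that of control LLC cells at pH 7.4 after 4 h. Its responses differed by 1.04 (SE 0.38). The other 2 Crem probe sets read at most 12.3, and with the mean of all 4 the difference for Crem was 1.08. With a pseudocount of 32 it was 1.36.

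Sik1 encodes a kinase that CREB induces and that holds CRTC coactivators in the cytoplasm. Its signal was 33.5 before treatment, 22.8 and 45.9 at pH 7.4 and 52.0 and 58.5 at pH 6.4 in TDAG8-LLC cells. The values in control LLC cells were 25.2, then 18.1 and 17.5 at pH 7.4, and 18.8 and 33.4 at pH 6.4. For Sik1 the response was larger in TDAG8-LLC cells at 4 h (1.28 against -0.04) and smaller at 12 h (0.43 against 1.06). Over both times the responses differed by 0.34 (SE 0.52, limma adjusted p = 0.9999). This value ranged from -0.21 to 0.90 when each pair of arrays was left out in turn, so its direction rested on single pairs: it was -0.08 without the TDAG8 pair at 4 h and -0.21 without the control pair at 4 h. The other Sik1 probe set read at most 6.4.

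Rgs2 encodes a GTPase-activating protein that ends signalling of G proteins and can inhibit adenylyl cyclase. Its representative probe set, 1419248_at, read 37.7 at pH 6.4 after 4 h in TDAG8-LLC cells and 9.4 after 12 h. On the other 8 arrays it read 0.4 to 6.5. A like pattern at 4 h was seen in 1419247_at (25.8, against 0.4 to 7.7 elsewhere) and 1447830_s_at (16.9, against 0.2 to 4.3), but not in 1443250_at (1.6, against 0.6 to 8.8). Thus 3 of the 4 Rgs2 probe sets were highest on that array. The log2 pH difference of 1419248_at at 4 h was 2.47 in TDAG8-LLC cells and 0.32 in control LLC cells, and at 12 h 1.25 and 0.54. These values depend on the pseudocount, and with 32 they were 0.94 and 0.07 at 4 h and 0.27 and 0.10 at 12 h. Rgs2 lay below the filter and has no test.

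RefSeq promoters (GRCm38.p6) were available for 5 of the 10 genes (Rgs2, Pde4b, Pde8a, Adcy7 and Pde4d), with 10 start sites in all. Those of Crem, Sik1, Pde3b, Pde7a and Adcy6 were not available and not searched. The available promoters were searched in the 250 bases before the start, on both strands, for the full CRE (TGACGTCA) and for its core (TGACG, or CGTCA on the other strand). Rgs2 and the start site of Pde4b that holds a core are shown, since these are the genes with promoters here whose signal was highest at pH 6.4 in TDAG8-LLC cells. Capitals mark the core, and the sequences run 5′ to 3′ along the gene.
Rgs2, chr1:144004150-144004399, strand minus: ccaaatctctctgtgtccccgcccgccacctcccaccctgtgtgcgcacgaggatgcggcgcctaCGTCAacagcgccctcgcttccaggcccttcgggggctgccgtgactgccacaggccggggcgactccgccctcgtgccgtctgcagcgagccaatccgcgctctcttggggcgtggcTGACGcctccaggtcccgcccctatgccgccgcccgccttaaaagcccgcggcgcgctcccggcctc
Pde4b, chr4:102421305-102421554, strand plus: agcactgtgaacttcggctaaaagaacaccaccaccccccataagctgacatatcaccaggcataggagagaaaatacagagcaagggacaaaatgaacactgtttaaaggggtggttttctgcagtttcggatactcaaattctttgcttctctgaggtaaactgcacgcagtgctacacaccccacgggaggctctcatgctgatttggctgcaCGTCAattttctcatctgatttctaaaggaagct
The cores of Rgs2 begin 185 and 67 bases before the start, and that of Pde4b begins 34 bases before it. Pde8a and 1 of the 3 start sites of Adcy7 also had 1 core each, so 4 of the 10 promoters of these genes held it, against 17.8% of all 32851 promoters. The full CRE was in 0 of these 10 promoters, against 1.55% of all promoters. The remaining 3 start sites of Pde4b, the other 2 of Adcy7 and that of Pde4d had no core in this window. Which start site was used was not measured.

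Pde4b encodes a cAMP-specific phosphodiesterase of the PDE4 family. In TDAG8-LLC cells 1422474_at read 103 before treatment, 131 and 171 at pH 7.4, and 257 and 508 at pH 6.4. In control LLC cells it read 68.8 before treatment, 71.4 and 112 at pH 7.4, and 64.5 and 93.3 at pH 6.4. Both pH 6.4 arrays of TDAG8-LLC cells lay above the other 8 arrays. The pH difference was 1.06 and 1.58 (4 h and 12 h) in TDAG8-LLC cells and -0.03 and -0.17 in control LLC cells, and the responses differed by 1.42 (2.67-fold, SE 0.31, limma adjusted p = 0.9999, unadjusted p = 0.00686). All 4 Pde4b probe sets above the filter were higher at pH 6.4 in TDAG8-LLC cells, by 0.84 to 1.37 at 4 h and by 0.72 to 1.58 at 12 h. In control LLC cells 2 of the 4 were higher and 2 lower at each time, within -0.42 to 0.58. The 2 Pde4b probe sets below the filter read at most 4.9, and with the mean of all 6 the difference for Pde4b was 0.91.

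Pde4d, a PDE4 relative, did not follow Pde4b. Its probe set 1435280_at read 70.9 before treatment in TDAG8-LLC cells, 67.7 and 122 at pH 7.4, and 32.9 and 98.8 at pH 6.4. Signals in control LLC cells were 48.2, then 58.7 and 113 at pH 7.4, and 22.3 and 20 at pH 6.4. After 4 h in acid it was low in both kinds of cell, and after 12 h it was low in control LLC cells alone. Its pH difference was -0.89 and -0.29 in TDAG8-LLC cells and -1.31 and -2.20 in control LLC cells. The responses differed by 0.41 at 4 h and 1.91 at 12 h, with a mean of 1.16 (SE 0.44, limma adjusted p = 0.9999). With a pseudocount of 32 the mean for Pde4d was 0.67, it was 0.45 with the mean of its 2 probe sets and 0.71 without the control pair at 12 h. The other Pde4d probe set read at most 4.9.

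Among all 12161 tested genes 0 passed for the difference between the responses by limma (0% called), and 339 had an unadjusted p under 0.05. Of the 9 tested genes of the set, 3 had an unadjusted p under 0.05, namely Crem, Pde4b and Pde4d. By size alone, the pH response was larger in TDAG8-LLC cells by 1 or more at both times for 2 of the 9, Crem and Pde4b, and for 0.658% of all tested genes, and smaller by as much for 0 of the 9 and 0.493% of all. The median difference between the responses was 0.344 over the 9 and -0.002 over all tested genes. Within TDAG8-LLC cells alone the mean pH difference was 1.77 for Crem (3.40-fold, SE 0.28, limma adjusted p = 0.159) and 1.32 for Pde4b (2.50-fold, SE 0.22, adjusted p = 0.161), and this fit called 0 of 12161 genes, with 1901 at an unadjusted p under 0.05. For the difference between the responses, the remaining 5 genes lay between -0.28 (Pde7a, SE 0.28) and 0.50 (Pde8a, SE 0.34), namely also 0.33 for Pde3b (SE 0.26), 0.16 for Adcy7 (SE 0.95) and 0.03 for Adcy6 (SE 0.38). The values for Adcy7 and Adcy6 changed sign when 1 pair was left out. For Adcy7 they ran from -0.93 (without the control pair at 12 h) to 1.24 (without the control pair at 4 h), with -0.75 and 1.06 without the TDAG8 pairs at 4 h and 12 h. For Adcy6 they ran from -0.34 (without the TDAG8 pair at 12 h) to 0.39 (without the TDAG8 pair at 4 h), with -0.19 and 0.24 without the control pairs at 4 h and 12 h.

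**Figure D2:**
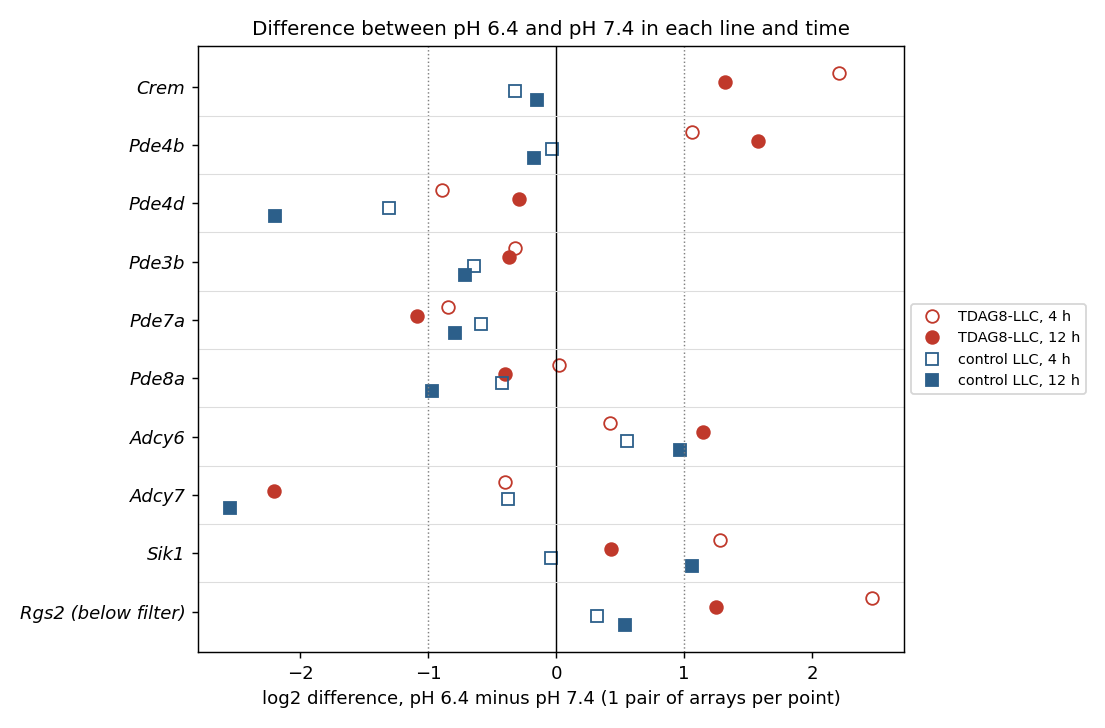
Log2 difference between pH 6.4 and pH 7.4 for each gene, 1 pair of arrays per point, with circles for TDAG8-LLC cells, squares for control LLC cells, open symbols for 4 h and filled symbols for 12 h, and dotted lines at -1 and 1. Crem and Pde4b lie at 1.06 to 2.21 in TDAG8-LLC cells and at -0.32 to -0.03 in control LLC cells, while Adcy7 lies at -0.40 and -0.38 at 4 h and at -2.21 and -2.55 at 12 h.

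Taken by single pairs of arrays, 3 of the 9 tested genes were higher by 1 or more at pH 6.4 after 4 h in TDAG8-LLC cells (Crem, Sik1 and Pde4b), where 3.37% of all tested genes were, and 0 were lower by 1 or more (5.70% of all). After 12 h in those cells 3 were higher (Pde4b, Crem and Adcy6; 5.81% of all) and 2 lower (Adcy7 and Pde7a; 7.83%). In control LLC cells 0 were higher after 4 h (3.26%) and 1 lower, Pde4d (6.04%). After 12 h there 1 was higher, Sik1 (5.95%), and 2 lower, Adcy7 and Pde4d (8.69%). These counts have no test, with 1 array on each side.

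The comparison of pH 6.4 with pH 7.4 asked which of these genes differed with pH on average over both kinds of cell. Adcy6, a calcium-inhibited adenylyl cyclase, rose 1.71-fold, and Pde7a, which encodes a cAMP-specific phosphodiesterase, fell 1.78-fold. Neither passed within TDAG8-LLC or control LLC cells alone (limma adjusted p = 0.292 and 0.292 for Adcy6, 0.176 and 0.237 for Pde7a). The fit within control LLC cells called 0 of 12161 genes. Adcy6 read 59.0 and 116 (4 h and 12 h) at pH 6.4 against 48.7 and 52.3 at pH 7.4 in TDAG8-LLC cells, and 72.3 and 117 against 52.9 and 63.2 in control LLC cells. Before treatment it read 50.4 and 61.5 in TDAG8-LLC and control LLC cells. The 12 h arrays at pH 6.4 stood highest in each kind of cell, and the rise was 0.77 (SE 0.16, 4 pairs, limma adjusted p = 0.046, higher in 4 of 4 pairs). It was 0.67 with the values as deposited (adjusted p = 0.0713) and 0.71 with arrays centred on their median (adjusted p = 0.0858). Adcy6 had 1 probe set.

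Pde7a (1458218_s_at) read 198 and 203 at pH 6.4 against 380 and 422 at pH 7.4 in TDAG8-LLC cells, and 189 and 195 against 308 and 339 in control LLC cells. Before treatment it read 410 and 320. All 4 pH 6.4 arrays lay below the other 6, and Pde7a fell by 0.83 (SE 0.13, limma adjusted p = 0.0239, lower in 4 of 4 pairs). Its 7 probe sets differed in the size of the fall. All 7 were lower at pH 6.4 in TDAG8-LLC cells at 4 h (-0.85 to -0.57) and at 12 h (-1.09 to -0.29) and in control LLC cells at 4 h (-0.72 to -0.01). In control LLC cells at 12 h 5 were lower and 2 higher (-0.79 to 0.23). Tested as 22854 separate probe sets, 3 of the 7 passed: 1458218_s_at, 1451839_a_at (-0.77, adjusted p = 0.0238) and 1438041_at (-0.65, adjusted p = 0.0362). With the mean of the 7 probe sets Pde7a was lower by 0.54 (change -0.54, adjusted p = 0.0542).

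Adcy7, an adenylyl cyclase known for its high level in blood cells, was somewhat lower than at pH 7.4 after 4 h in acid and far lower after 12 h. It read 690 before treatment, 728 and 787 at pH 7.4, and 570 and 179 at pH 6.4 in TDAG8-LLC cells. Control LLC cells read 524, then 497 and 528 at pH 7.4, and 364 and 87 at pH 6.4. Both 12 h arrays at pH 6.4 lay far below the other 8 arrays. The pH difference was -0.40 and -0.38 at 4 h and -2.21 and -2.55 at 12 h (TDAG8 and control). The mean over the 4 pairs for Adcy7 was -1.39 (SE 0.44, limma adjusted p = 0.098), which did not pass. A direct test of the response at 12 h against that at 4 h, added with these values known, gave -1.99 for Adcy7 (SE 0.19, limma adjusted p = 0.0993, unadjusted p = 0.000408). The same test with trend and robust gave an adjusted p of 0.00122 and with a pseudocount of 32 one of 0.0058. Many other genes passed under those settings too, with counts given at the end. The limma adjusted p was 0.0932 with the values as deposited and 0.0767 with arrays centred on their median. Over all genes the test with the main settings called 0 of 12161 (0% called, with 3135 at an unadjusted p under 0.05), and for Adcy6 it gave 0.58 (SE 0.16, adjusted p = 0.14). The 3 Adcy7 probe sets ran together, at -0.40 to -0.13 and -0.38 to -0.06 at 4 h and at -2.34 to -1.85 and -2.95 to -2.22 at 12 h.

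Pde3b, a phosphodiesterase that cyclic GMP inhibits and insulin activates, read 714 and 817 at pH 6.4 against 841 and 1028 at pH 7.4 in TDAG8-LLC cells. In control LLC cells it read 378 and 444 against 614 and 705. It was lower in 4 of 4 pairs and did not pass (-0.51, SE 0.13, limma adjusted p = 0.0602). Pde8a, a high-affinity cAMP phosphodiesterase, read 59.3 and 65.7 against 65.7 and 90.6 in TDAG8-LLC cells and 42.4 and 27.2 against 60 and 64.1 in control LLC cells. The difference for Pde8a was -0.44 (SE 0.18, limma adjusted p = 0.163), lower in 3 of 4 pairs. The remaining pair, at 4 h in TDAG8-LLC cells, was 0.02 after quantile normalisation and -0.14 as deposited. Without the control pair at 12 h the difference for Pde8a was -0.26. Its other probe set above the filter, 1418407_at, read 5.8 to 15.8 and did not fall (0.22, SE 0.20). At 12 h in TDAG8-LLC cells 1418407_at differed by 0.92, where the representative probe set differed by -0.40. With the mean of all its probe sets Pde8a differed by -0.11 (limma adjusted p = 0.666). Pde4d was lower in 4 of 4 pairs (-1.17, SE 0.31, limma adjusted p = 0.0694). Sik1 (0.68, SE 0.24, adjusted p = 0.125), Crem (0.76, SE 0.46, adjusted p = 0.302) and Pde4b (0.61, SE 0.33, adjusted p = 0.256) did not pass in this limma fit, which averages both kinds of cell. The value for Crem was 0.28 without the TDAG8 pair at 4 h, and that for Pde4b was 0.29 without the TDAG8 pair at 12 h.

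In all, 1 of the 9 tested genes rose and 1 fell with pH 6.4, against 4.47% and 5.56% of the 12161 genes (10% called in all). By sign alone 4 of the 9 were lower in 4 of 4 pairs and 1 was higher, against 20.6% and 21.6% of all tested genes. The median difference was -0.44 over the 9 and -0.003 over all. Of the fibroblast markers 1 of 4 tested fell at pH 6.4, Pdgfra (-1.70, limma adjusted p = 0.0144), with -1.22 for Pdgfrb, -1.07 for Lum and -0.89 for Dcn and a list median of -1.14. Summed, the 5 on the array read 1710 to 4177 at pH 6.4 and 4117 to 7515 at pH 7.4, and their part in the result was not tested. Without any 1 of the 4 pairs neither Adcy6 nor Pde7a passed: the limma adjusted p was 0.0823 to 0.151 for Adcy6 and 0.0575 to 0.0925 for Pde7a. Of the 1220 genes called 44.6% were higher, and 32.4% and 33.1% with arrays centred on their median and with the values as deposited.

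**Figure D3:**
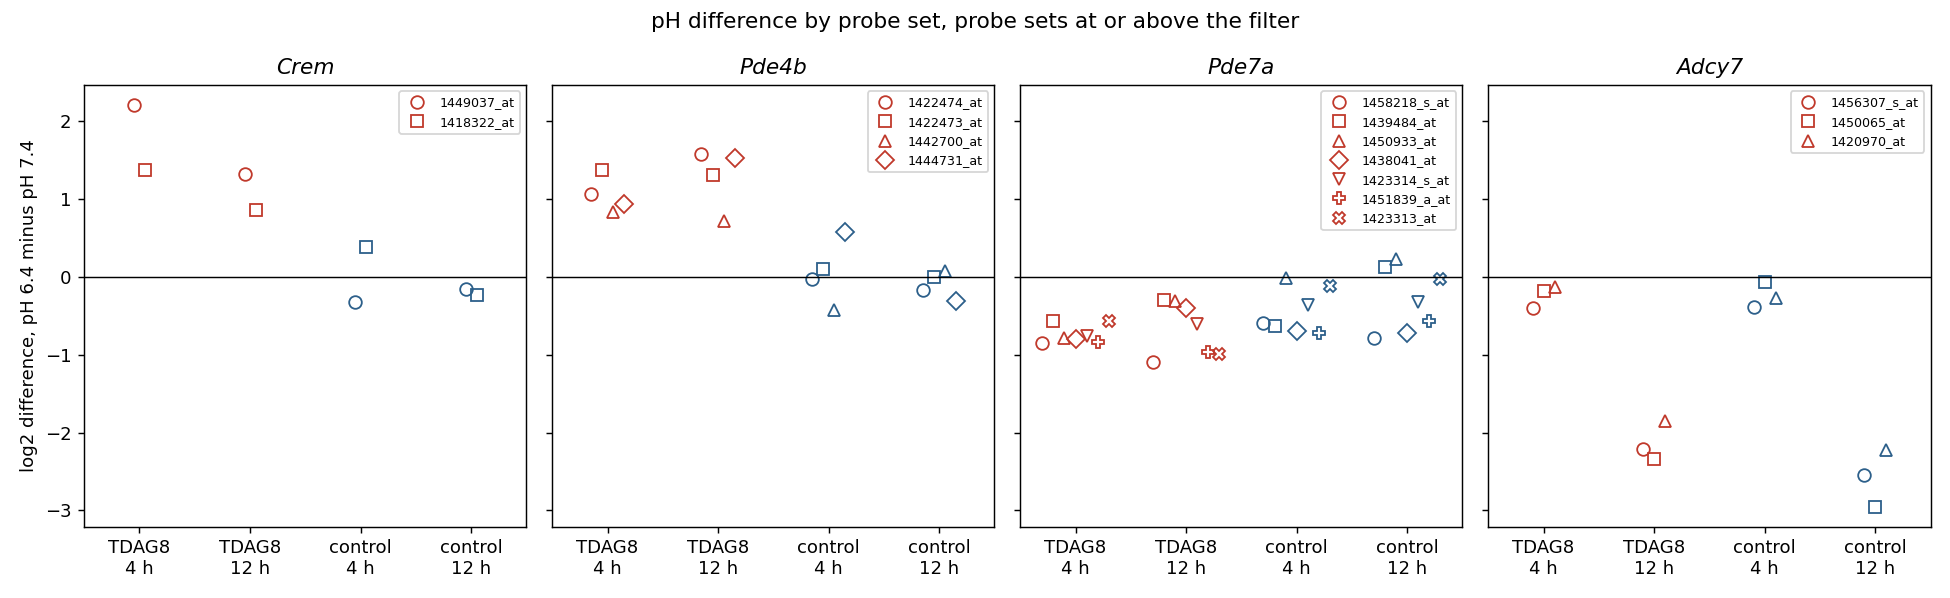
Log2 difference between pH 6.4 and pH 7.4 for each probe set at or above the filter of Crem, Pde4b, Pde7a and Adcy7, by cells (red TDAG8-LLC, blue control LLC) and time, 1 pair of arrays per symbol. The 4 Pde4b probe sets lie at 0.72 to 1.58 in TDAG8-LLC cells and at -0.42 to 0.58 in control LLC cells, and the 3 Adcy7 probe sets lie at -2.95 to -1.85 at 12 h in both.

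The cells were next compared with each other within each of the 5 conditions. Pde3b (1.59-fold) and Adcy7 (1.53-fold) were higher in TDAG8-LLC cells. Pde3b read 714 to 1028 in TDAG8-LLC cells and 378 to 705 in control LLC cells, and before treatment it read 752 against 515. After quantile normalisation these ranges overlapped. On the log2 scale Pde3b was at 9.44 in TDAG8-LLC cells at pH 6.4 after 4 h. It was at 9.49 in control LLC cells at pH 7.4 after 12 h. The difference for Pde3b was 0.67 (SE 0.08, 5 pairs, limma adjusted p = 0.0386, higher in 5 of 5 pairs), and it was 0.49 to 0.56 before treatment and at pH 7.4 and 0.82 and 0.90 at pH 6.4. Adcy7 was higher by 0.61 (SE 0.08, limma adjusted p = 0.0435, higher in 5 of 5 pairs), from 0.41 before treatment to 0.92 at pH 6.4 after 12 h. Its 3 probe sets gave 0.61, 0.77 and 0.56, and as separate probe sets none passed (adjusted p = 0.0595 to 0.0752).

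Of the 7 other tested genes, 0 passed. Pde4b was higher in TDAG8-LLC cells by 0.49 before treatment, 0.82 and 0.62 at pH 7.4, and 1.91 and 2.37 at pH 6.4 (mean 1.24, SE 0.31, limma adjusted p = 0.109). Of its other probe sets above the filter, 1422473_at and 1442700_at were also higher in every condition. The third, 1444731_at, was at -0.18 before treatment and -1.53 at pH 7.4 after 12 h, and was higher in the other conditions. With the mean of all its probe sets the difference for Pde4b was 0.44. Crem was lower by 0.60 before treatment (difference -0.60), at -0.11 and 0.53 at pH 7.4 and at 2.43 and 2.00 at pH 6.4 (mean 0.85, SE 0.48, adjusted p = 0.365 in limma). The other Crem probe set above the filter, 1418322_at, was higher by 0.21 before treatment and by 0.49 and 0.05 at pH 7.4. Without the pH 6.4 pair at 4 h the mean for Crem was 0.45, and without that at 12 h it was 0.56. For Sik1 the mean was 0.77 (SE 0.22, limma adjusted p = 0.139), with 1.30 at pH 7.4 after 12 h and 1.48 at pH 6.4 after 4 h as its largest values. By their representative probe sets, Pde8a (0.49), Pde4d (0.66) and Pde7a (0.20) were higher in 5 of 5 pairs, and Adcy6 was lower in 5 of 5 (-0.23, SE 0.07). Of the other Pde7a probe sets only 1439484_at was higher in every condition. At pH 6.4 1450933_at (-0.12 and -0.21) and 1423313_at (-0.10 and -0.29) were lower in TDAG8-LLC cells. The other Pde8a probe set, 1418407_at, was lower before treatment (-0.12) and higher in the other conditions. Without the pH 6.4 pair at 12 h, where Pde4d was at 2.03, its mean was 0.32, and with the mean of its probe sets it was 0.28. Counted at 1 or more, 0 of the 9 were higher in TDAG8-LLC cells before treatment (1.96% of all tested genes) and at pH 7.4 after 4 h (1.92%), and 1 was at pH 7.4 after 12 h, Sik1 (1.61%). At pH 6.4 there were 3 after 4 h, Crem, Pde4b and Sik1 (2.84%), and 4 after 12 h, Pde4b, Pde4d, Crem and Pde8a (3.36%). The representative probe set of Pde7a was nearly level between the cells at pH 6.4 (0.04 and 0.01) and higher by 0.30 to 0.32 in the other conditions.

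Thus 2 of the 9 passed, both higher in TDAG8-LLC cells, where 0.674% of the tested genes passed in that direction (1.20% in either). By sign of the representative probe set alone 7 of the 9 were higher in 5 of 5 conditions, against 10.5% of all tested genes. For Pde7a, Pde8a and Pde4b this did not hold for all their other probe sets above the filter. The median difference was 0.66 over the 9 and -0.003 over all. As there was 1 population of each kind, the receptor and any other difference between the populations cannot be told apart. Of the fibroblast markers 1 of 4 tested was higher in TDAG8-LLC cells, Dcn (0.45, limma adjusted p = 0.0457), with Lum at 0.80 (adjusted p = 0.0534) and a list median of 0.35. The 5 on the array summed to 2708 to 7515 in TDAG8-LLC cells and 1710 to 5895 in control LLC cells. Of the epithelial markers 0 of 4 passed, with a median of 0.41, and the 6 on the array summed to 2103 to 2884 and 1295 to 2096, with Cdh1 and Cldn4 at most at 6.6. The part of these markers in the result was not tested. Without any 1 of the 5 pairs, neither gene passed (limma adjusted p = 0.0822 to 0.132 for Pde3b and 0.0676 to 0.146 for Adcy7), nor did they with arrays centred on their median (0.0697 and 0.0738). Of the 146 genes called 56.2% were higher, and 67.9% with the values as deposited.

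**Figure D4:**
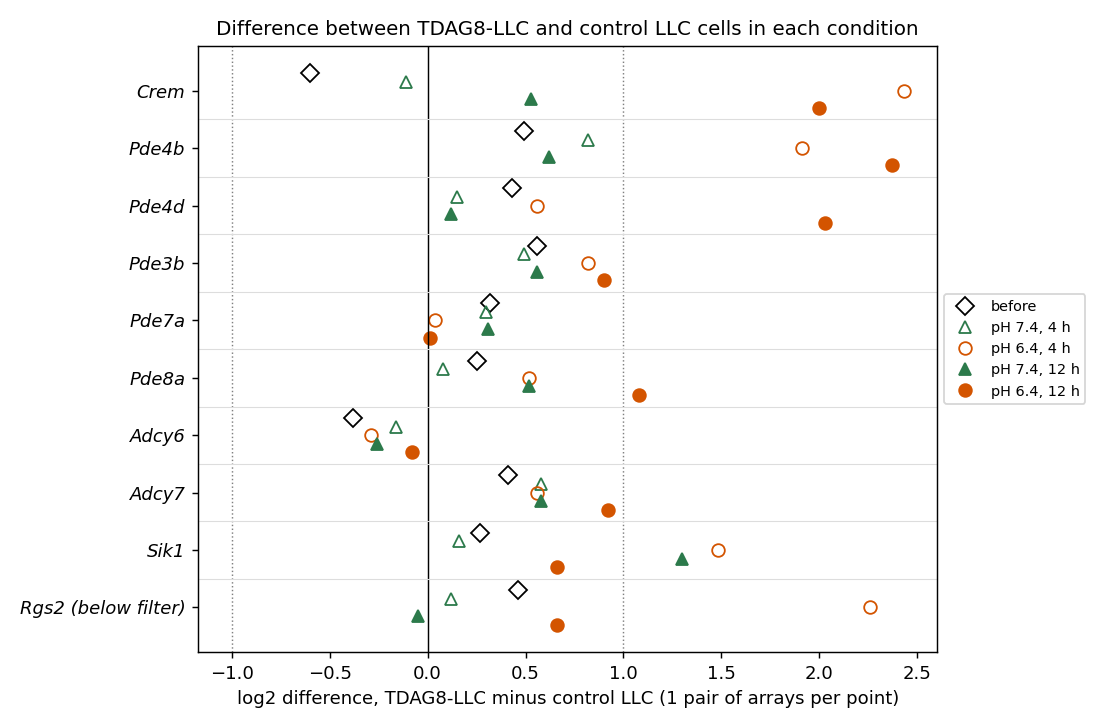
Log2 difference between TDAG8-LLC cells and control LLC cells for each gene in the 5 conditions, 1 pair of arrays per point, with dotted lines at -1 and 1. The representative probe set of Pde4b lies right of 0 in every condition, at 0.49 to 0.82 before treatment and at pH 7.4 and at 1.91 and 2.37 at pH 6.4. Crem lies at -0.60 before treatment and at 2.43 and 2.00 at pH 6.4.

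Time and medium change alone were compared at neutral pH and over both media. From before treatment to pH 7.4 at 4 h, 0 of the 9 tested genes moved by 1 or more in either kind of cell, where 2.15% of all tested genes did in TDAG8-LLC cells and 3.17% in control LLC cells. The largest shifts were those of Sik1, at -0.54 and -0.43. From 4 h to 12 h over both kinds of cell and pH values 0 of 9 passed, as did 0 of 12161 genes (limma, 0% called, 1420 at an unadjusted p under 0.05). Pde4b was higher at 12 h in 4 of 4 pairs (0.58, SE 0.13, limma adjusted p = 0.422), and so was Adcy6 (0.41, SE 0.16). Pde4d was higher by 0.84 and 0.88 at pH 7.4 and by 1.45 at pH 6.4 in TDAG8-LLC cells, and was level at -0.02 at pH 6.4 in control LLC cells (mean 0.79, SE 0.24).

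Across the 10 arrays, which share cells, pH values and times, several of the genes correlated with each other, given here as a description. Crem and Pde4b correlated at 0.853 (Pearson, log2 values, 10 arrays), and Sik1 with Pde4b at 0.798 and with Crem at 0.782. Pde3b correlated with Pde8a at 0.872 and with Pde4d at 0.854, Pde4d with Pde8a at 0.808 and Pde7a with Adcy7 at 0.772. Adcy6 ran opposite to Adcy7 (-0.956) and to Pde7a (-0.861). Among 8749 genes that reached a signal of 50 on some array, those most like Crem were Jarid2 (0.967), Apold1 (0.955) and Mxi1 (0.929). Those most like Pde4b were Kif5b (0.958), Mxi1 (0.954) and Bag3 (0.937), so Mxi1 was near both. For Sik1 they were Pvr (0.922), Arhgef7 (0.920) and Il11 (0.909).

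The cyclases and the remaining phosphodiesterases had other companions over the same 10 arrays. Adcy7 was most like Htra3 (0.992), Pcyt1b (0.985) and Ctbp1 (0.983), and Adcy6 like Plekhb2 (0.988), Mrpl32 (0.988) and Zfp948 (0.980). Pde7a was most like Peak1 (0.989), Pdlim2 (0.987) and Dnajc5 (0.986). Each of these was at or above 0.98, higher than for Crem or Sik1. Pde3b was most like Cdkn2c (0.976), Emb (0.955) and Pik3c3 (0.954), Pde4d like Ube2b (0.958), Nab2 (0.956) and Etnk1 (0.935), and Pde8a like Chst11 (0.980), Herc1 (0.965) and Tnfrsf22 (0.957).

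The rest of the pathway was read from gene lists chosen by function, also with earlier results of these data known. Of the other phosphodiesterases 10 of 19 were tested and 0 passed in any of the 4 main limma fits. Their median difference was -0.14 for pH and 0.24 between the cells, and the largest differences between the pH responses were those of Pde6g (1.43), Pde8b (0.74), Pde5a (0.56) and Pde1a (0.48), with signals of 9.7 to 44.1 for Pde5a and at most 15 for the others. Of the other adenylyl cyclases 4 of 8 were tested and 0 passed. Adcy3, the cyclase of olfactory neurons, read 216 to 267 and Adcy9 48.7 to 108 over all arrays, with differences between the responses of -0.13 and 0.01, while Adcy10 (-1.23) and Adcy2 (0.55) read at most 15.3.

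Among CREB, its coactivators and the other SIK kinases, 3 of 8 tested genes fell at pH 6.4 and 0 rose, where 5.56% of all genes fell. Sik3 fell by 1.27 (limma adjusted p = 0.0186) and ranged from 108 to 458. Crtc3, a coactivator that SIK kinases inhibit, fell by 1.21 (adjusted p = 0.0167), and Crebbp, the CREB-binding acetyltransferase, by 0.71 (adjusted p = 0.0472). The median pH difference of the list was -0.49 against 0 over all tested genes. For the difference between the responses 0 of 8 passed, with -0.50 for Crtc2, 0.25 for Sik2, -0.23 for Creb1 and 0.14 for Crtc3.

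Of the other RGS genes 10 of 18 were tested and 0 passed in any of these limma fits. Rgs16, the closest to passing for pH, differed by 1.73 between pH 6.4 and pH 7.4 (limma adjusted p = 0.0726, signals 2.0 to 39.3). The pH response of TDAG8-LLC cells minus that of control LLC cells was -0.83 for Rgs16, -0.86 for Rgs20, -0.38 for Rgs14 and -0.37 for Rgs9. Of the G protein genes 6 of 7 were tested and 0 passed. Gnas, the stimulatory subunit that activates the cyclases, read 3244 to 4553 with a pH difference of 0.00, and the differences between the responses were 1.08 for Gnai1 (signals 3.9 to 12.4), -0.14 for Gnai2, -0.11 for Gnb2 and -0.08 for Gnas. Of the proton-sensing receptors 0 of the 3 with a probe set reached the filter, and Gpr4 and Gpr132 read at most 3.2 and 11.7.

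Of the protein kinase A subunits and inhibitors, Epac genes and the cAMP exporter Abcc4, 1 of 9 tested genes fell at pH 6.4 and 0 rose. This was Abcc4 (-0.80, limma adjusted p = 0.0479, signals 53.4 to 183), and of all tested genes 5.56% fell and 4.47% rose. The differences between the responses were 0.53 for Prkar1b, 0.50 for Abcc4, 0.27 for Prkar2a and 0.15 for Prkar1a, and 0 of 9 passed. Of the other CREB targets 5 of 13 tested genes rose at pH 6.4 and 0 fell, where 4.47% of all genes rose: Fos (3.58), Ptgs2 (2.43), Junb (2.08), Per1 (1.57) and Nr4a1 (0.87). Their median pH difference was 1.57, and the median difference between the responses was 1.21, with 3.84 for Nr4a3, 2.94 for Nr4a2, 2.34 for Vdr and 2.21 for Il6, none of which passed. Crem and Pde4b, at 2.00 and 1.42, lay below these 4 genes.

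**Figure D5:**
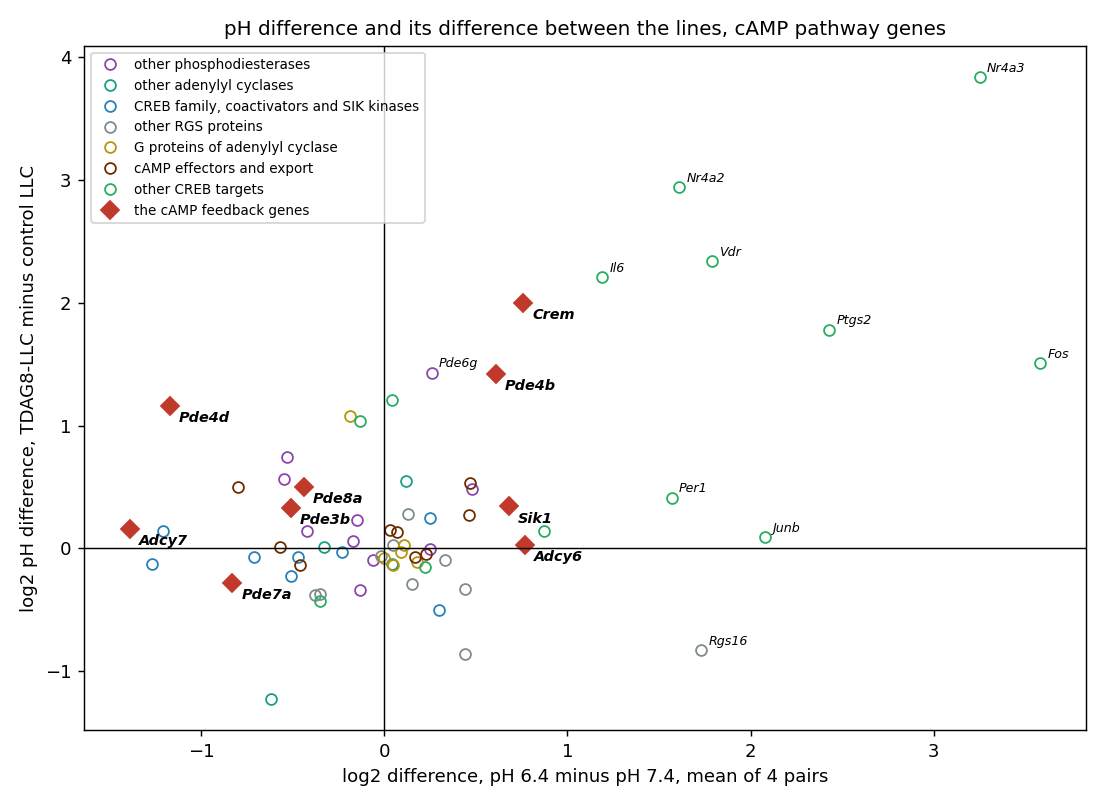
Mean log2 difference between pH 6.4 and pH 7.4 over 4 pairs of arrays (x) against the pH difference of TDAG8-LLC cells minus that of control LLC cells (y), with diamonds for the 9 tested genes of the set and open circles for the tested genes of the other lists. Crem (0.76, 2.00) and Pde4b (0.61, 1.42) lie high, Adcy6 (0.77, 0.03) and Pde7a (-0.83, -0.28) lie near the horizontal axis, and Pde4d (-1.17, 1.16) lies to the upper left.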

How the data were processed

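Per the deposited table, the authors' values are linear signal, scaled to a common trimmed mean. The labels name no software for this step. Probe sets were named from the GEO platform annotation, and 34945 had 1 gene symbol, 932 several, 9160 none and 64 were controls. Since array medians differed by up to 0.24 (log2), more than 0.1, quantile normalisation was applied, and the 20th percentile of all values (2.4) was added before log2. Genes whose mean reached the 40th percentile of probe sets (log2 3.17) were tested with limma 3.58.1 in R 4.3.3 (lmFit, eBayes, Benjamini-Hochberg over all 12161 genes, adjusted p under 0.05).

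Matched conditions stood in for replicates. Each fit had the matched pair as a block: 4 pairs for pH and for time (3 residual degrees of freedom) and 5 for the kind of cell (4). The interactions of pH with line and with time had 2. The p-values thus rest on the spread between pairs. That spread mixes differences between pools of cultures and between arrays with those between the matched conditions. Without replicates these cannot be told apart, and the number of arrays limits precision.

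The genes and lists were chosen with earlier results of these data known. All 10 genes are named, with those that passed and up to 4 with the largest difference between the pH responses from each list, and the 3 named genes most correlated with each member. List genes without a probe set of 1 symbol are not analysed here. Alternatives were other normalisation, pseudocounts of 0.5 and 32, no filter, other handling of probe sets, trend and robust variances, no block and each pair left out. The pH by time term was added later.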

Additional observations from a re-analysis of the deposited data

Results flagged for a closer look

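Crem and Pde4b were higher at pH 6.4 at both times in TDAG8-LLC cells and lower at both times in control LLC cells. The log2 pH responses differed by 2.00 for Crem and by 1.42 for Pde4b, and neither passed the limma test of the difference (adjusted p = 0.9999 for each). The differences in control LLC cells for Pde4b, -0.03 and -0.17, are small, and 2 of its 4 probe sets above the filter had the opposite sign there at each time. For Crem the second probe set above the filter gave pH differences of 0.39 and -0.23 in control LLC cells.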

How the results depend on the processing

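Of the genes of the set, 2 of 9 passed for pH. This count was 1 with the values as deposited, with arrays centred on their median, with a pseudocount of 0.5 and for probe set means, 0 without a filter and 0 when any 1 pair was left out. It was 5 with a pseudocount of 32 and with trend and robust, and 4 with a pH by time term, which was chosen after seeing the data. Between the lines the count of 2 became 1 with the values as deposited and with a pseudocount of 0.5, 0 with arrays centred on their median, without a filter, with every probe set tested on its own, without a block and without any 1 pair, and 4 with a pseudocount of 32. For the pH response at 12 h against 4 h the count of 0 became 1, Adcy7, with a pseudocount of 32 and with trend and robust. For the difference between the cells in their pH response and for time it was 0 under all alternatives run. In that difference the sign changed for Adcy6, Adcy7 and Sik1, with ranges over the pairs left out of -0.34 to 0.39, -0.93 to 1.24 and -0.21 to 0.90. With the values as deposited, single pairs near 0 changed sign too: Pde8a at 4 h in TDAG8-LLC cells (0.02 to -0.14) and Sik1 at 4 h in control LLC cells (-0.04 to 0.05). The causes were not tested.

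Over all genes the 1220 calls for pH became 241 without a filter, 2244 with a pseudocount of 32, 2076 with trend and robust, 1863 without a block, 3397 with pH by time, 2537 of 22854 with every probe set and 0 to 278 without 1 pair (0 without either 12 h pair, 44 without the TDAG8 pair at 4 h). The 146 calls between the cells became 9, 757, 881, 15 and 67 under these settings other than pH by time, and 4 to 28 without 1 pair. The 0 calls for the response at 12 h against 4 h became 1560 with a pseudocount of 32, 1836 with trend and robust and 304 without a block.

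For single pairs a limit of 0.58 raised the counts past the limit from 3 to 5 (TDAG8-LLC, 4 h), from 1 to 3 (control LLC, 4 h) and from 3 to 7 (control LLC, 12 h), and a pseudocount of 32 lowered them to 1, 0 and 2, and to 2 from 5 in TDAG8-LLC cells at 12 h. No paired analysis was possible by replicate number because each condition had 1 array; the matched conditions served as blocks instead. Low signal limits Rgs2, whose log2 values depend on the pseudocount, and Sik1, which read at most 58.5.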
